A study of Mus musculus with 18 samples.

Results

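Fatty acid oxidation enzymes are the 33 genes followed here through ischemic injury of the mouse kidney. They were chosen by symbol, as enzymes and carriers of mitochondrial and peroxisomal beta-oxidation and of the transport that feeds it. The rule of choice used no measured values, but earlier results of these data were known when it was made. All 33 were among the 20825 genes of the deposited table, and all 33 passed the filter on low values that left 14716 genes for testing. The study sequenced RNA from kidneys of C57BL/6 mice aged 11 weeks after unilateral ischemia and reperfusion (UIR) or a sham operation. In UIR mice the pedicle of the right kidney was clamped for 45 minutes and released, and the left kidney was kept in place and unclamped. The groups are sham and UIR kidneys at days 1, 3 and 21 after surgery, with 3 libraries in each of the 6 groups, 18 in all, called biological replicates in the labels. The labels do not say which kidney was sequenced, do not give the sex, and do not say what was done to sham mice beyond the word sham. A mouse with an intact left kidney survives the loss of function of the clamped one, so the model follows injury of 1 kidney and not renal failure.

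Beta-oxidation shortens fatty acids by cycles of dehydrogenation, hydration, a further dehydrogenation and thiolytic cleavage, and releases acetyl-CoA, NADH and reduced flavin. Fatty acids are first activated to acyl-CoA, and long chains then enter mitochondria through the carnitine shuttle. Peroxisomes run a parallel pathway for very long and branched chains, which begins with an oxidase in place of a dehydrogenase. The proximal tubule of the kidney is rich in mitochondria and peroxisomes and draws most of its ATP from fatty acids, and many of these genes are known targets of the nuclear receptor PPARα.

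Levels are FPKM, fragments per kilobase of transcript relative to the mapped fragments, whose sum ran from 424207 to 549490 per library. The read depth is unknown, because the table holds no counts. Folds are differences of log2(FPKM + 1), and a gene is called where limma gave an adjusted p below 0.05 over the 14716 genes. At days 1, 3 and 21 the median fold of all genes tested was -0.03, 0.44 and 0.53, so members are read against a background that lay above 0 at the later days. The kidney label held, with 12 proximal tubule markers present in every group. Of their summed FPKM the single gene Kap, which encodes kidney androgen-regulated protein, made up 83.1% to 89.1% in the 3 sham groups, so the sums are given without it. The other 11 markers summed to 2482 to 2994 FPKM in sham kidneys of day 1, 7031 to 7333 at day 3 and 6665 to 7942 at day 21. In UIR kidneys they summed to 1059 to 2803 FPKM at day 1, which overlapped sham, 244 to 395 at day 3 and 67.3 to 367 at day 21. UIR minus sham was called lower for 5 of all 12 markers at day 1 and for 12 of 12 at days 3 and 21. Markers of injured tubule were called higher for 8 of 8 genes on each day, and 6 macrophage markers rose from a sum of 46.5 to 58.5 FPKM in sham to 2992 to 4220.04 FPKM in UIR kidneys at day 21, where 6 of 6 were called higher. In whole tissue, fewer cells of a type and less RNA per cell cannot be told apart, and the part of cell makeup in the results below was not tested. UIR libraries labelled replicate 3 stood lowest of their groups in these 11 markers at day 1 (1059 FPKM), day 3 (244 FPKM) and day 21 (67.3 FPKM).

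Fatty acid oxidation transcripts were lower in UIR than in sham kidneys on every day, across nearly the whole pathway. The summed level of the 33 members was 7564 ± 472 FPKM in sham and 2487 ± 305 FPKM in UIR kidneys at day 1 (SD, n = 3), 6102 ± 137 and 1456 ± 50.2 FPKM at day 3, and 5917 ± 168 and 1132 ± 139.5 FPKM at day 21. As a share of all FPKM the members took 1.55%, 1.16% and 1.2% in sham kidneys and 0.51%, 0.34% and 0.26% in UIR kidneys at days 1, 3 and 21. The sum was lower at each later day in UIR kidneys, while the sham sum was highest at day 1. Slc27a2 made up a large part of the sham sums and fell steeply. Without it, the other 32 members summed to 5912 ± 413 FPKM in sham and 2130 ± 167 FPKM in UIR kidneys at day 1. These sums were 4258 ± 68.2 and 1301 ± 49.9 FPKM at day 3, and 4084 ± 133 and 1058 ± 96.5 FPKM at day 21. At day 1, 32 of 33 members were called lower and 0 higher, where 31.1% of all genes tested were called lower and 28.5% higher. At day 3, 32 of 33 were called lower, against 17.9% of all genes, and 0 higher, against 57.6%. At day 21, 33 of 33 were called lower, against 20.1% of all genes, where 60.7% were called higher. The exceptions were Acaa2 at day 1 and Hadha at day 3, so 31 members were called lower on all 3 days. The share of all genes called lower on all 3 days was not counted, and can be no larger than 17.9%. Counts without the UIR libraries labelled replicate 3 at days 1 and 21 were 32 lower at day 1 and 33 at day 21, a check added after the data were seen.

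At days 1, 3 and 21 the members' median log2 fold was -1.36, -1.55 and -1.78. The order of days 1 and 3 turned with scaling, since on a TPM scale these medians were -1.39, -1.28 and -1.64. Called losses of at least 2-fold were seen for 23 members at day 1, 25 at day 3 and 27 at day 21. Called losses of at least 4-fold were seen for 8, 10 and 12 members. Shares of all genes with such losses were not counted. They can be no larger than the 31.1%, 17.9% and 20.1% called lower. All 3 UIR libraries lay below all 3 sham libraries for 32 members at day 1, 31 at day 3 and 33 at day 21, while the shares of all genes tested that separated in this way were 31.7%, 19.4% and 21.5%. By day 21 the mean of 27 members in UIR kidneys was under 50% of the sham mean, a count not made over all genes. The plot of effects by member shows how uneven this was, from Slc27a2 and Ehhadh at 4.02% and 3.95% of sham to Hadha at 82.2%.

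**Figure D1:**
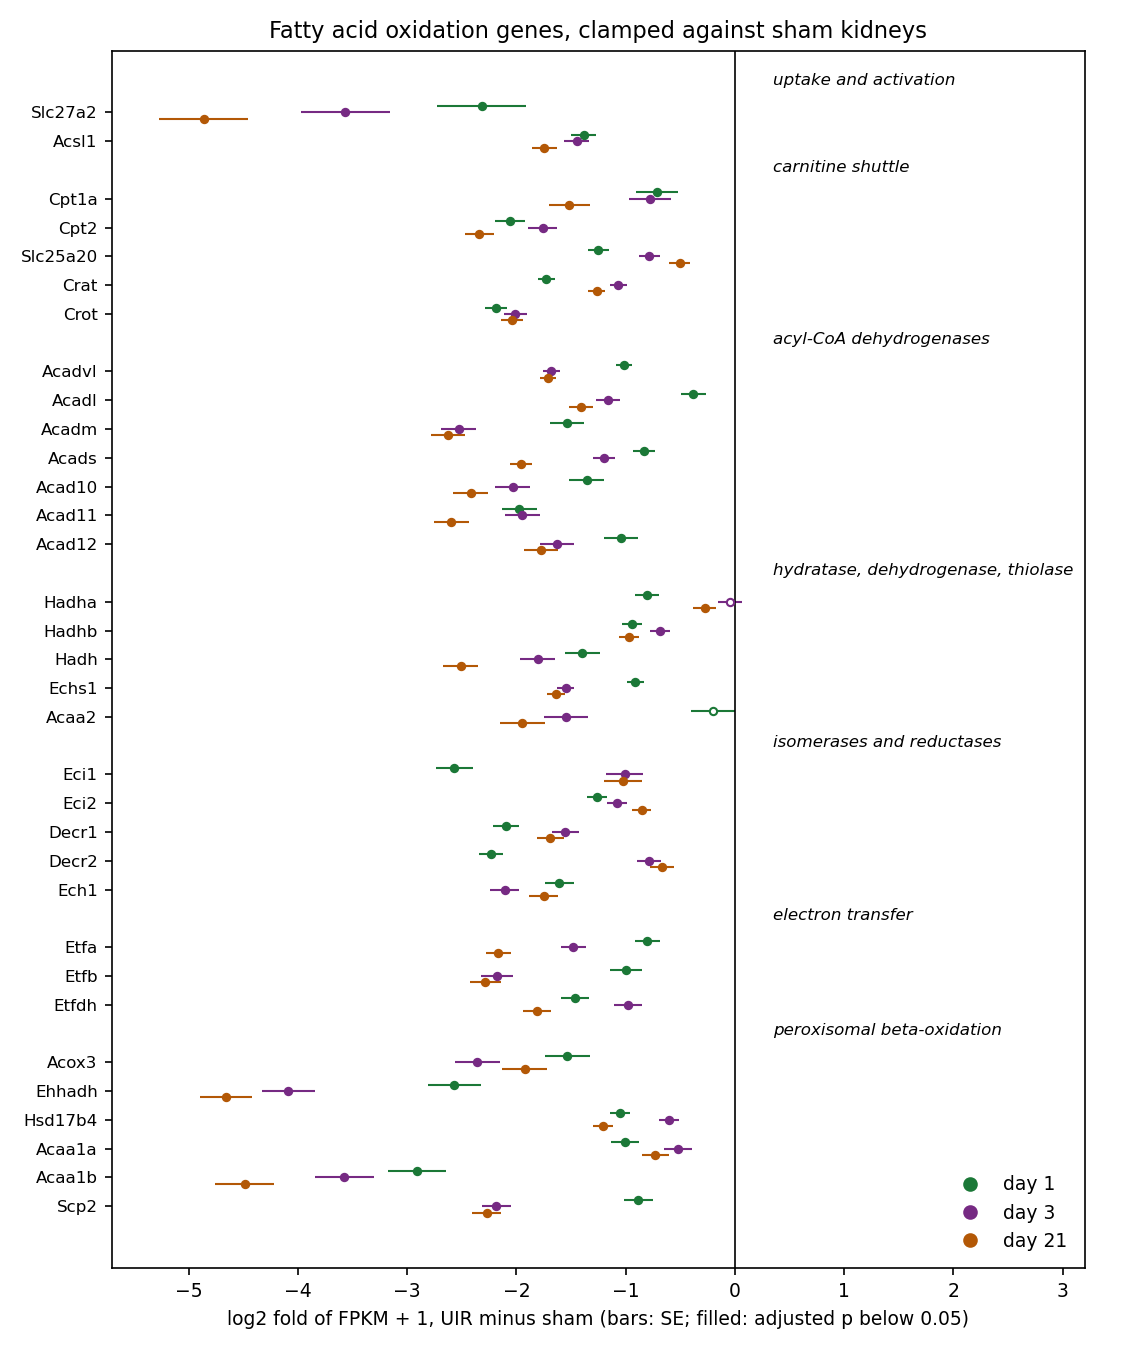
Log2 fold of UIR over sham for each of the 33 members (rows, grouped by role) at days 1, 3 and 21, with bars of 1 SE and a line at 0. All points lie below 0, and the spread between members is wide, from -0.05 for Hadha at day 3 to -4.86 for Slc27a2 at day 21.

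Uptake and activation lost most of its transcript. Slc27a2 encodes FATP2, a carrier that brings fatty acids into the proximal tubule cell and activates very long chains, and it had the highest FPKM of all members in sham kidneys. Slc27a2 measured 1697, 1531 and 1730.5 FPKM at day 1, 1758, 1809 and 1966 at day 3 and 1882, 1763 and 1854 at day 21 in sham kidneys. In UIR kidneys Slc27a2 measured 443, 449.6 and 180.2 FPKM at day 1, 149.7, 172 and 143 at day 3 and 88.6, 108 and 24.7 at day 21. The UIR libraries were far below every sham library on each day, and those of day 21 spread widely, with replicate 3 the lowest. For Slc27a2 the log2 fold at days 1, 3 and 21 was -2.32 ± 0.41, -3.57 ± 0.41 and -4.86 ± 0.41 (SE, limma, highest adjusted p 1.4e-04). Its mean in UIR kidneys was 21.6% of sham at day 1, 8.4% at day 3 and 4.02% at day 21. Acsl1, the main long-chain acyl-CoA synthetase, measured 137, 149.96 and 159 FPKM at day 1, 85.2, 58.9 and 72.3 at day 3 and 85.0, 82.3 and 71.7 at day 21 in sham kidneys. In UIR kidneys Acsl1 measured 61.05, 53.6 and 54.2 FPKM at day 1, 26.6, 24.01 and 26.1 at day 3 and 24.03, 23.9 and 21.2 at day 21. Sham and UIR values did not overlap on any day, although 1 UIR library of day 1, at 61.05 FPKM, stood above the lowest later sham library, at 58.9 FPKM. For Acsl1 the log2 fold at days 1, 3 and 21 was -1.39 ± 0.11, -1.45 ± 0.11 and -1.75 ± 0.11 (SE, limma, highest adjusted p 5.8e-08).

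All 5 genes of carnitine transfer were called lower on each of the 3 days. Cpt2 encodes the inner-membrane transferase that remakes acyl-CoA inside mitochondria, and Crot the peroxisomal transferase for medium chains. Cpt2 measured 154, 149 and 156 FPKM at day 1, 78.6, 55.9 and 81.8 at day 3 and 74.6, 67.9 and 77.8 at day 21 in sham kidneys. In UIR kidneys Cpt2 measured 36.2, 33.3 and 38.4 FPKM at day 1, 18.7, 20.7 and 21.6 at day 3 and 14.2, 16.1 and 11.2 at day 21. Every UIR library lay below every sham library of its day. For Cpt2 the log2 fold at days 1, 3 and 21 was -2.06 ± 0.13, -1.76 ± 0.13 and -2.34 ± 0.13 (SE, limma, highest adjusted p 8.4e-09). Crot measured 157, 148 and 156 FPKM at day 1, 104, 113 and 116 at day 3 and 109, 87.4 and 118 at day 21 in sham kidneys. In UIR kidneys Crot measured 31.1, 36.7 and 31.4 FPKM at day 1, 25.4, 27.3 and 27.6 at day 3 and 26.6, 25.0 and 22.1 at day 21. On the log2 scale the gap between the groups was nearly the same size on all 3 days, while in FPKM it was widest at day 1. For Crot the log2 fold at days 1, 3 and 21 was -2.19 ± 0.10, -2.01 ± 0.10 and -2.04 ± 0.10 (SE, limma, highest adjusted p 3.2e-10). Slc25a20, the carrier that exchanges acylcarnitine for carnitine across the inner membrane, measured 90.1, 89.4 and 102 FPKM at day 1, 37.7, 41.8 and 38.0 at day 3 and 29.8, 29.7 and 33.2 at day 21 in sham kidneys. In UIR kidneys Slc25a20 measured 37.9, 38.7 and 39.8 FPKM at day 1, 20.5, 20.4 and 26.5 at day 3 and 20.2, 22.1 and 22.2 at day 21. The UIR libraries of day 1 reached the level of the later sham libraries, although they lay far under sham kidneys of their own day. For Slc25a20 the log2 fold at days 1, 3 and 21 was -1.25 ± 0.09, -0.78 ± 0.09 and -0.51 ± 0.09 (SE, limma, highest adjusted p 1.2e-04).

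Crat, which makes acetylcarnitine, measured 64.4, 74.2 and 72.2 FPKM at day 1, 43.1, 37.8 and 42.4 at day 3 and 37.8, 38.9 and 41.8 at day 21 in sham kidneys. In UIR kidneys Crat measured 21.3, 19.5 and 20.8 FPKM at day 1, 18.96, 19.3 and 18.9 at day 3 and 15.2, 17.1 and 15.2 at day 21. UIR libraries were tightly grouped and below all sham libraries. For Crat the log2 fold at days 1, 3 and 21 was -1.73 ± 0.08, -1.07 ± 0.08 and -1.27 ± 0.08 (SE, limma, highest adjusted p 4.1e-09). Cpt1a encodes the outer-membrane transferase that sets the pace of entry of long chains. Cpt1a ranged from 77.98 to 186 FPKM over the 9 sham libraries and from 44.4 to 128 FPKM over the 9 UIR libraries. For Cpt1a the log2 fold at days 1, 3 and 21 was -0.71 ± 0.19, -0.78 ± 0.19 and -1.52 ± 0.19 (SE, limma, highest adjusted p 0.0042). At day 3 the lowest sham library of Cpt1a overlapped the UIR range, since sham stood at 138, 77.98 and 141 FPKM and UIR at 60.04, 61.4 and 80.4 FPKM.

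The acyl-CoA dehydrogenases open each mitochondrial cycle, and Acadvl, Acadl, Acadm and Acads take very long, long, medium and short chains. All 7 genes of the group were called lower on all 3 days, and the median log2 fold of the group was -1.04, -1.68 and -1.96. Acadm measured 224, 255 and 275 FPKM at day 1, 316, 360.3 and 332 at day 3 and 306, 288 and 307 at day 21 in sham kidneys. In UIR kidneys Acadm measured 96.3, 105 and 62.2 FPKM at day 1, 58.03, 57.1 and 56.96 at day 3 and 53.3, 52.8 and 38.5 at day 21. No UIR library came near a sham library at any day. For Acadm the log2 fold at days 1, 3 and 21 was -1.54 ± 0.16, -2.53 ± 0.16 and -2.63 ± 0.16 (SE, limma, highest adjusted p 6.1e-07). Acad11, a less studied member of the family, measured 76.7, 85.9 and 92.5 FPKM at day 1, 79.6, 58.4 and 79.2 at day 3 and 90.4, 89.9 and 85.6 at day 21 in sham kidneys. In UIR kidneys Acad11 measured 23.98, 24.9 and 15.2 FPKM at day 1, 19.5, 17.9 and 16.4 at day 3 and 14.7, 15.0 and 11.96 at day 21. The UIR libraries clustered well under the sham range. For Acad11 the log2 fold at days 1, 3 and 21 was -1.97 ± 0.16, -1.94 ± 0.16 and -2.6 ± 0.16 (SE, limma, highest adjusted p 4.8e-08). Acads measured 74.6, 72.4 and 79.9 FPKM at day 1, 95.5, 77.5 and 87.2 at day 3 and 96.9, 86.0 and 104 at day 21 in sham kidneys. In UIR kidneys Acads measured 46.4, 38.3 and 41.3 FPKM at day 1, 35.2, 38.1 and 37.8 at day 3 and 21.7, 26.5 and 23.5 at day 21. Losses of Acads were smaller at day 1 than later. For Acads the log2 fold at days 1, 3 and 21 was -0.84 ± 0.10, -1.2 ± 0.10 and -1.96 ± 0.10 (SE, limma, highest adjusted p 3.1e-06). Acad12, expressed at the lowest level of all members, measured 6.55, 6.6 and 7.12 FPKM at day 1, 12.2, 9.69 and 10.7 at day 3 and 12.2, 10.5 and 12.98 at day 21 in sham kidneys. In UIR kidneys Acad12 measured 3.3, 3.54 and 1.72 FPKM at day 1, 2.56, 3.11 and 2.79 at day 3 and 2.7, 3.21 and 2.4 at day 21. All UIR values lay at or below 3.54 FPKM, and day made little difference to them. For Acad12 the log2 fold at days 1, 3 and 21 was -1.04 ± 0.16, -1.63 ± 0.16 and -1.78 ± 0.16 (SE, limma, highest adjusted p 3.3e-05).

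The other 3 dehydrogenases were lower too. Acadvl ranged from 120.1 to 199 FPKM over the 9 sham libraries and from 35.6 to 93.2 FPKM over the 9 UIR libraries. For Acadvl the log2 fold at days 1, 3 and 21 was -1.01 ± 0.07, -1.68 ± 0.07 and -1.71 ± 0.07 (SE, limma, highest adjusted p 1.8e-08). Acadvl loss deepened between days 1 and 3. Acadl ranged from 146 to 232 FPKM over the 9 sham libraries and from 52.5 to 198 FPKM over the 9 UIR libraries. For Acadl the log2 fold at days 1, 3 and 21 was -0.38 ± 0.11, -1.16 ± 0.11 and -1.41 ± 0.11 (SE, limma, highest adjusted p 0.0083). At day 1 Acadl kept 77.5% of its sham level, the smallest loss of a called member on that day, and that call was lost when only the groups compared entered the fit (adjusted p = 0.065, limma). Acad10 ranged from 17.9 to 26.9 FPKM over the 9 sham libraries and from 3.23 to 9.94 FPKM over the 9 UIR libraries. For Acad10 the log2 fold at days 1, 3 and 21 was -1.36 ± 0.16, -2.04 ± 0.16 and -2.42 ± 0.16 (SE, limma, highest adjusted p 3.0e-06).

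Hadha and Hadhb encode the alpha and beta chains of the trifunctional protein, which carries out the last 3 steps for long chains. The genes lie head to head, and their start sites are 273 bases apart. RefSeq promoter windows of 250 bases upstream of each start therefore share 228 bases, at chr5:30155003-30155230 (GRCm38.p6, plus strand). The shared stretch is shown because the 2 genes have it in common and yet their measured losses were unlike in size at days 3 and 21. It holds 15 CG pairs, in capitals, is 57.0% G or C, and has 0 matches to CCAAT on either strand.
shared Hadha and Hadhb promoter: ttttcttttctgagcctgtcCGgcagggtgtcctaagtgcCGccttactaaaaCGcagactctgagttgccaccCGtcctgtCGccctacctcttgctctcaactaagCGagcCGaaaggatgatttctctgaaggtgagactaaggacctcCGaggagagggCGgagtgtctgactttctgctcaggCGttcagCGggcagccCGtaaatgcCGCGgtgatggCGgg
Hadha measured 126, 132 and 129 FPKM at day 1, 74.9, 56.2 and 66.1 at day 3 and 63.1, 67.4 and 65.1 at day 21 in sham kidneys. In UIR kidneys Hadha measured 64.3, 70.5 and 87.6 FPKM at day 1, 59.2, 62.6 and 68.2 at day 3 and 53.8, 55.3 and 51.6 at day 21. The sham level of day 1 was far above that of the later days, and the UIR libraries of day 3 lay inside the range of their sham libraries. For Hadha the log2 fold at days 1, 3 and 21 was -0.81 ± 0.11, -0.05 ± 0.11 and -0.28 ± 0.11 (SE, limma, highest adjusted p 0.72). At day 3 Hadha was the only member not called (limma, adjusted p = 0.72), and at day 21 its call was lost in 4 of the 6 fits that left out 1 library. Hadhb ranged from 86.7 to 146 FPKM over the 9 sham libraries and from 43.6 to 76.6 FPKM over the 9 UIR libraries. For Hadhb the log2 fold at days 1, 3 and 21 was -0.95 ± 0.09, -0.69 ± 0.09 and -0.97 ± 0.09 (SE, limma, highest adjusted p 4.4e-06). Hadhb thus stood at 51.6%, 61.6% and 50.6% of sham and Hadha at 57.3%, 96.4% and 82.2%, and the difference between the 2 genes was not tested.

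The remaining mitochondrial steps act on shorter chains, and their losses at days 3 and 21 were larger than those of Hadha and Hadhb. Hadh, the 3-hydroxyacyl-CoA dehydrogenase for medium and short chains, measured 253, 268 and 281 FPKM at day 1, 297, 279.8 and 315 at day 3 and 309, 290.5 and 318 at day 21 in sham kidneys. In UIR kidneys Hadh measured 131, 109.6 and 71.2 FPKM at day 1, 77.7, 86.1 and 89.9 at day 3 and 54.01, 59.9 and 45.7 at day 21. Groups were apart on each day, and the lowest libraries were those of UIR at day 21. For Hadh the log2 fold at days 1, 3 and 21 was -1.4 ± 0.16, -1.8 ± 0.16 and -2.51 ± 0.16 (SE, limma, highest adjusted p 2.0e-06). Acaa2, the mitochondrial 3-ketoacyl-CoA thiolase, measured 77.7, 113 and 117 FPKM at day 1, 112, 119 and 107 at day 3 and 109, 146 and 138 at day 21 in sham kidneys. In UIR kidneys Acaa2 measured 119.9, 92.3 and 60.3 FPKM at day 1, 34.01, 38.5 and 41.5 at day 3 and 29.4, 38.7 and 31.5 at day 21. At day 1 the groups overlapped, and Acaa2 was the only member not called then, while both later days showed a clear gap. For Acaa2 the log2 fold at days 1, 3 and 21 was -0.20 ± 0.20, -1.55 ± 0.20 and -1.95 ± 0.20 (SE, limma, highest adjusted p 0.42). Echs1, the short-chain enoyl-CoA hydratase, measured 95.8, 96.3 and 107 FPKM at day 1, 127, 116 and 116 at day 3 and 112, 112 and 122 at day 21 in sham kidneys. In UIR kidneys Echs1 measured 58.7, 49.8 and 49.4 FPKM at day 1, 40.5, 39.8 and 40.4 at day 3 and 36.2, 38.03 and 35.1 at day 21. UIR libraries lay below sham libraries on all days, by the smallest margin at day 1. For Echs1 the log2 fold at days 1, 3 and 21 was -0.91 ± 0.08, -1.55 ± 0.08 and -1.64 ± 0.08 (SE, limma, highest adjusted p 9.0e-08).

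Enzymes that prepare unsaturated chains for the cycle had their largest median loss at day 1, although Ech1 lost most at day 3. On the deposited scale the carnitine shuttle also had its largest median loss at day 1, with -1.73, -1.07 and -1.52 at days 1, 3 and 21. That order may not hold under median-of-ratios scaling, where Crot and Crat had more negative effects at day 21 than at day 1. For the 5 genes of unsaturated chains the median log2 fold at days 1, 3 and 21 was -2.1, -1.08 and -1.02. All 5 were called lower on each day. Eci1, a mitochondrial enoyl-CoA isomerase, measured 152, 193 and 187 FPKM at day 1, 63.4, 80.2 and 69.3 at day 3 and 56.6, 62.96 and 75.1 at day 21 in sham kidneys. In UIR kidneys Eci1 measured 39.5, 27.6 and 21.9 FPKM at day 1, 33.3, 38.1 and 32.5 at day 3 and 31.7, 34.6 and 27.6 at day 21. UIR values stayed in 1 band over the 3 days, while sham values at day 1 were well above those of later sham kidneys. For Eci1 the log2 fold at days 1, 3 and 21 was -2.57 ± 0.17, -1.01 ± 0.17 and -1.02 ± 0.17 (SE, limma, highest adjusted p 5.9e-05). Decr2, the peroxisomal dienoyl-CoA reductase, measured 69.7, 67.5 and 71.6 FPKM at day 1, 40.9, 33.8 and 35.8 at day 3 and 34.5, 33.3 and 34.6 at day 21 in sham kidneys. In UIR kidneys Decr2 measured 15.6, 11.8 and 14.9 FPKM at day 1, 20.4, 21.9 and 20.2 at day 3 and 23.2, 22.9 and 17.6 at day 21. The sham levels dropped after day 1 and the UIR levels rose, so the groups drew closer without meeting. For Decr2 the log2 fold at days 1, 3 and 21 was -2.23 ± 0.11, -0.79 ± 0.11 and -0.67 ± 0.11 (SE, limma, highest adjusted p 3.3e-05). Decr1, the mitochondrial dienoyl-CoA reductase, measured 101, 129 and 122 FPKM at day 1, 73.5, 71.5 and 75.7 at day 3 and 67.7, 67.5 and 70.04 at day 21 in sham kidneys. In UIR kidneys Decr1 measured 30.8, 28.01 and 21.6 FPKM at day 1, 22.1, 24.9 and 26.5 at day 3 and 22.2, 21.9 and 17.8 at day 21. All UIR libraries were below all sham libraries. For Decr1 the log2 fold at days 1, 3 and 21 was -2.1 ± 0.12, -1.55 ± 0.12 and -1.69 ± 0.12 (SE, limma, highest adjusted p 1.1e-08). Eci2, an isomerase found in mitochondria and peroxisomes, measured 167, 153 and 199 FPKM at day 1, 76.4, 75.96 and 80.8 at day 3 and 66.9, 68.8 and 69.1 at day 21 in sham kidneys. In UIR kidneys Eci2 measured 69.1, 71.6 and 73.1 FPKM at day 1, 33.6, 35.4 and 40.05 at day 3 and 35.9, 40.4 and 35.8 at day 21. The UIR libraries of day 1 overlapped the later sham libraries. For Eci2 the log2 fold at days 1, 3 and 21 was -1.26 ± 0.09, -1.08 ± 0.09 and -0.85 ± 0.09 (SE, limma, highest adjusted p 2.5e-07). Ech1 encodes a dienoyl-CoA isomerase. Ech1 ranged from 279.5 to 491 FPKM over the 9 sham libraries and from 72.1 to 192 FPKM over the 9 UIR libraries. For Ech1 the log2 fold at days 1, 3 and 21 was -1.61 ± 0.13, -2.11 ± 0.13 and -1.75 ± 0.13 (SE, limma, highest adjusted p 6.0e-08).

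Electron transfer flavoprotein, made of the alpha chain Etfa and the beta chain Etfb, accepts electrons from the acyl-CoA dehydrogenases, and Etfdh passes them to ubiquinone. All 3 genes were called lower on each day. Etfb measured 284, 302 and 282 FPKM at day 1, 412, 474 and 346 at day 3 and 260.4, 307 and 332 at day 21 in sham kidneys. In UIR kidneys Etfb measured 175, 142 and 121 FPKM at day 1, 90.4, 91.2 and 86.1 at day 3 and 60.3, 70.1 and 52.1 at day 21. UIR libraries declined from day to day and never met the sham range. For Etfb the log2 fold at days 1, 3 and 21 was -1.0 ± 0.14, -2.18 ± 0.14 and -2.29 ± 0.14 (SE, limma, highest adjusted p 2.0e-05). Etfa measured 128, 139.5 and 153 FPKM at day 1, 180.1, 188 and 201 at day 3 and 197, 197 and 175 at day 21 in sham kidneys. In UIR kidneys Etfa measured 85.6, 90.4 and 65.3 FPKM at day 1, 64.5, 67.4 and 70.0 at day 3 and 45.6, 41.8 and 37.1 at day 21. The levels of sham kidneys were lowest at day 1 and those of UIR kidneys lowest at day 21. For Etfa the log2 fold at days 1, 3 and 21 was -0.80 ± 0.11, -1.48 ± 0.11 and -2.17 ± 0.11 (SE, limma, highest adjusted p 1.7e-05). Etfdh measured 98.7, 117 and 128 FPKM at day 1, 70.2, 62.4 and 86.3 at day 3 and 88.04, 86.8 and 78.9 at day 21 in sham kidneys. In UIR kidneys Etfdh measured 41.5, 44.1 and 36.8 FPKM at day 1, 34.1, 36.9 and 37.6 at day 3 and 23.5, 27.02 and 20.1 at day 21. Groups did not overlap on any day, and the loss was smallest at day 3. For Etfdh the log2 fold at days 1, 3 and 21 was -1.46 ± 0.13, -0.98 ± 0.13 and -1.81 ± 0.13 (SE, limma, highest adjusted p 3.6e-06).

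The peroxisomal branch held the member with the largest fall within UIR kidneys from day 1 to day 3, Ehhadh. Ehhadh encodes the L-bifunctional enzyme, and Acaa1a and Acaa1b encode 2 peroxisomal thiolases. Their RefSeq promoters of 250 bases upstream of the start (GRCm38.p6) are shown because Ehhadh and Acaa1b moved most among the peroxisomal members and because Acaa1a and Acaa1b have near-identical transcripts but unlike levels. They lie at chr16:21787835-21788084 (minus strand) for Ehhadh, chr9:119157094-119157343 (minus strand) for Acaa1b and chr9:119341044-119341293 (plus strand) for Acaa1a. Capitals mark CCAAT or its reverse complement ATTGG, the CAAT box bound by NF-Y.
Ehhadh promoter: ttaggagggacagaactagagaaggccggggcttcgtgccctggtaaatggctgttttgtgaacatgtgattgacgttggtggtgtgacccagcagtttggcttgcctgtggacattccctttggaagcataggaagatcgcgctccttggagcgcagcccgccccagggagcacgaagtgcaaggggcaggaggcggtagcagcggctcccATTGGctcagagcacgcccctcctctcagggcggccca
Acaa1b promoter: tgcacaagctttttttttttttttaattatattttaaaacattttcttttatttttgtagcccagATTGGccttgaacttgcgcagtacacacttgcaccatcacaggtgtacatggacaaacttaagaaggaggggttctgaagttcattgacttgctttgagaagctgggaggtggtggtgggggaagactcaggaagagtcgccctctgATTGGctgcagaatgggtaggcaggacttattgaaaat
Acaa1a promoter: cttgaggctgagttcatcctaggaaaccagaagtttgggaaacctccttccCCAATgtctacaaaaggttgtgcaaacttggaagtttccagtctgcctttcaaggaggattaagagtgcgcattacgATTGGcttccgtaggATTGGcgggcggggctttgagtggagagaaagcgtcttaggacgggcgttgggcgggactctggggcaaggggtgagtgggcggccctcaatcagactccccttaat
The Acaa1a and Acaa1b promoters were identical at 40.5% of 259 aligned columns. Their transcripts were 96.0% identical over 1450.0 aligned columns, with a run of 327 identical bases. Reads of Acaa1a and Acaa1b may therefore have been divided between them, and each is uncertain as a single gene.

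Ehhadh measured 1008, 812 and 1058 FPKM at day 1, 269, 249.5 and 305 at day 3 and 306, 276 and 328 at day 21 in sham kidneys. In UIR kidneys Ehhadh measured 169, 147 and 163 FPKM at day 1, 17.04, 13.7 and 14.9 at day 3 and 13.96, 16.2 and 5.71 at day 21. Sham libraries of day 1 stood highest, later sham libraries came next, then UIR libraries of day 1, and later UIR libraries lay lowest, with no overlap between these 4 sets. For Ehhadh the log2 fold at days 1, 3 and 21 was -2.57 ± 0.24, -4.09 ± 0.24 and -4.66 ± 0.24 (SE, limma, highest adjusted p 2.4e-07). Acaa1b measured 466, 581 and 691 FPKM at day 1, 227, 170.02 and 162 at day 3 and 145, 169 and 178 at day 21 in sham kidneys. In UIR kidneys Acaa1b measured 87.1, 67.7 and 72.1 FPKM at day 1, 13.7, 13.8 and 16.3 at day 3 and 7.58, 10.3 and 3.06 at day 21. The order of the groups was the same as for Ehhadh, and UIR replicate 3 of day 21 was the lowest library. For Acaa1b the log2 fold at days 1, 3 and 21 was -2.91 ± 0.27, -3.58 ± 0.27 and -4.49 ± 0.27 (SE, limma, highest adjusted p 1.9e-07). Acaa1a measured 66.3, 63.8 and 72.6 FPKM at day 1, 55.9, 48.3 and 53.96 at day 3 and 54.04, 57.5 and 61.4 at day 21 in sham kidneys. In UIR kidneys Acaa1a measured 42.8, 28.9 and 29.2 FPKM at day 1, 36.5, 37.5 and 35.2 at day 3 and 30.2, 38.2 and 35.2 at day 21. UIR values stayed level over time and below all sham values of their day. For Acaa1a the log2 fold at days 1, 3 and 21 was -1.01 ± 0.13, -0.52 ± 0.13 and -0.73 ± 0.13 (SE, limma, highest adjusted p 0.0014). At day 3 the call of Acaa1a was lost on a TPM scale (adjusted p = 0.089, limma).

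Hsd17b4, the D-bifunctional enzyme, measured 138, 148 and 159 FPKM at day 1, 96.3, 76.99 and 87.8 at day 3 and 100.0, 90.3 and 98.9 at day 21 in sham kidneys. In UIR kidneys Hsd17b4 measured 68.7, 69.8 and 74.03 FPKM at day 1, 54.5, 58.2 and 57.4 at day 3 and 43.02, 43.7 and 37.1 at day 21. Groups stayed apart on each day with the narrowest gap at day 3. For Hsd17b4 the log2 fold at days 1, 3 and 21 was -1.05 ± 0.09, -0.60 ± 0.09 and -1.21 ± 0.09 (SE, limma, highest adjusted p 1.5e-05). Acox3, an oxidase of branched chains, measured 55.6, 57.98 and 58.4 FPKM at day 1, 84.8, 65.5 and 106 at day 3 and 103, 67.2 and 104 at day 21 in sham kidneys. In UIR kidneys Acox3 measured 24.9, 21.3 and 13.1 FPKM at day 1, 15.99, 15.02 and 15.5 at day 3 and 23.4, 24.04 and 21.1 at day 21. UIR libraries were below all sham libraries, and sham values spread widely at days 3 and 21. For Acox3 the log2 fold at days 1, 3 and 21 was -1.54 ± 0.21, -2.36 ± 0.21 and -1.92 ± 0.21 (SE, limma, highest adjusted p 9.9e-06). Scp2, which encodes a thiolase of branched chains and a sterol carrier, measured 172, 189.96 and 194 FPKM at day 1, 306, 309 and 299 at day 3 and 303, 269.7 and 284 at day 21 in sham kidneys. In UIR kidneys Scp2 measured 114, 113 and 77.4 FPKM at day 1, 63.7, 70.2 and 64.6 at day 3 and 68.5, 57.5 and 50.2 at day 21. Sham values rose after day 1 while UIR values fell. For Scp2 the log2 fold at days 1, 3 and 21 was -0.88 ± 0.13, -2.19 ± 0.13 and -2.27 ± 0.13 (SE, limma, highest adjusted p 3.0e-05).

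**Figure D2:**
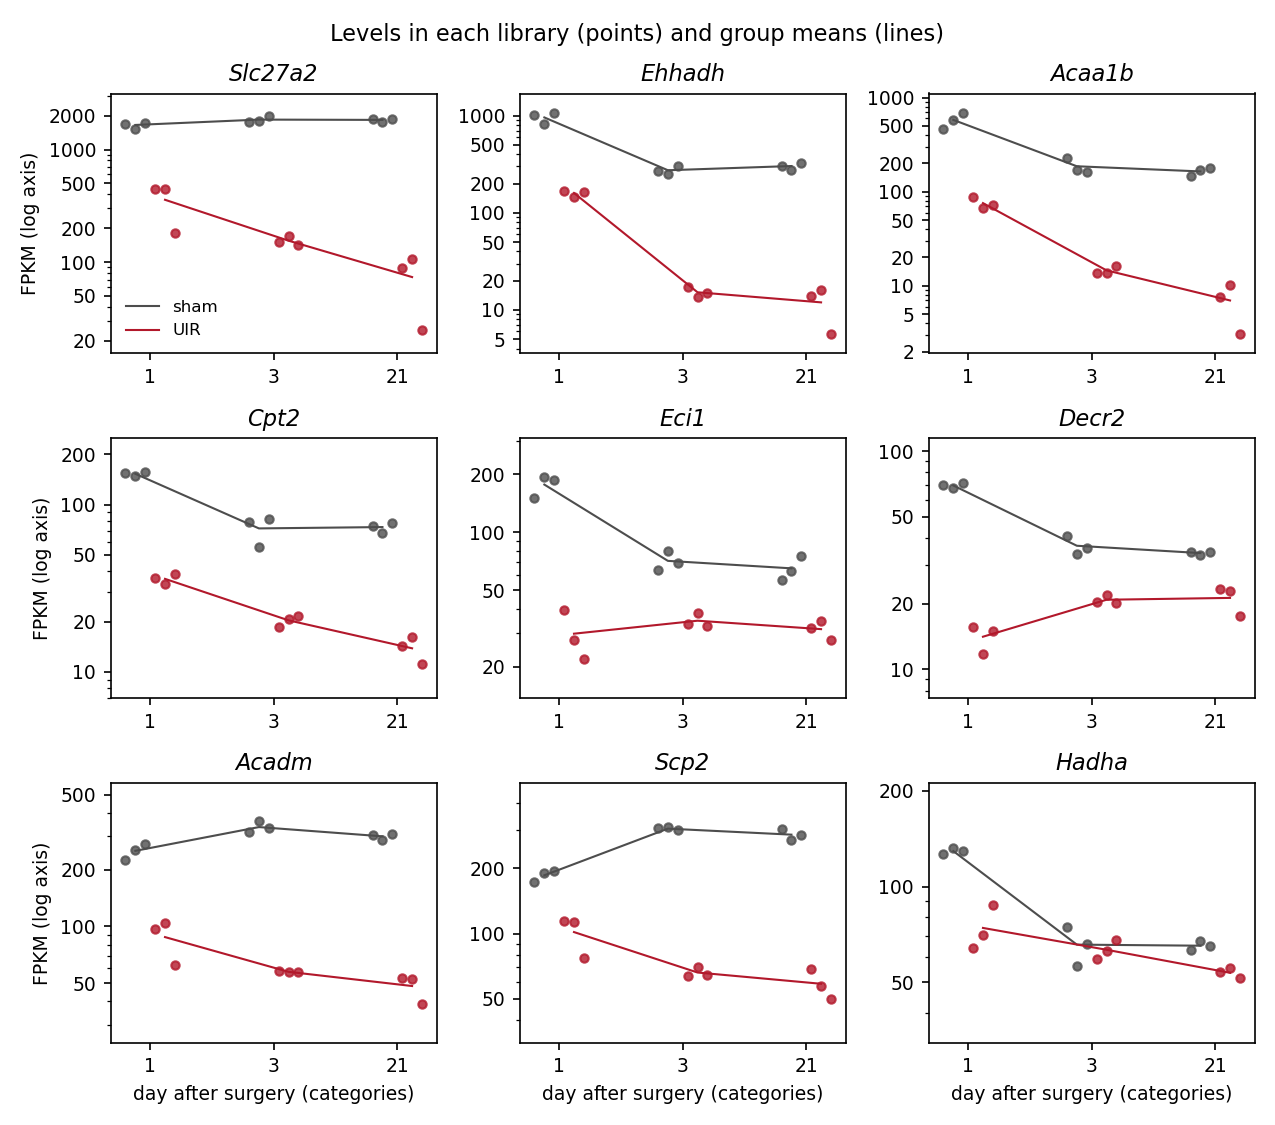
FPKM (log axis) of 9 members in each of the 18 libraries, 1 point per library, with sham and UIR groups at days 1, 3 and 21. Hadha groups meet at day 3, Acadm and Scp2 sham levels are lowest at day 1, and Ehhadh, Acaa1b, Cpt2, Eci1 and Decr2 sham levels are highest at day 1.

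Sham kidneys themselves changed between day 1 and the later days, which sets the reference for day 1. Against the mean of the day-3 and day-21 sham groups, called later sham, 20 members were higher in sham kidneys of day 1, 6 were lower and 7 were not called. Of all genes tested 31.9% were called higher and 14.1% lower. All 5 members of the carnitine shuttle and all 5 isomerases and reductases were among those higher. The rises were led by Ehhadh with a log2 fold of 1.73 ± 0.21, Acaa1b with 1.71 ± 0.23, Slc25a20 with 1.41 ± 0.08, Eci1 with 1.37 ± 0.15 and Eci2 with 1.23 ± 0.08 (SE, limma, highest adjusted p 2.2e-05). Both genes named first belong to the peroxisomal branch, and Slc25a20 to the carnitine shuttle. The 6 members that were lower in sham kidneys of day 1 were Scp2 (-0.67 ± 0.11), Acad12 (-0.67 ± 0.14), Acox3 (-0.59 ± 0.18), Etfa (-0.44 ± 0.10), Acads (-0.26 ± 0.09) and Echs1 (-0.23 ± 0.07), with a highest adjusted p of 0.021 (limma). The calls of Acaa1a, Cpt1a, Acads and Echs1 were each lost under at least 1 other scaling. Proximal tubule markers were called lower for 8 of 12 genes in this comparison and injured tubule markers higher for 7 of 8, and their part in the members' shift was not tested.

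Because of that shift, UIR kidneys of day 1 were also set against later sham. Of the 33 members 28 were lower, 0 higher and 5 not called, where 32% of all genes tested were called lower and 39.6% higher. The 5 not called were Cpt1a (-0.25 ± 0.16), Slc25a20 (0.15 ± 0.08), Hadha (0.17 ± 0.09), Acadl (0.01 ± 0.10) and Eci2 (-0.03 ± 0.08), with adjusted p from 0.1 to 0.91 (limma). All 5 of them were among the 20 members higher in sham kidneys of day 1, and both comparisons use the same later sham libraries. The other 15 of those 20 were lower in UIR kidneys of day 1 than in later sham, as were all 6 members lower in sham kidneys of day 1 and all 7 not called there. The median log2 fold of the members was -1.1 against later sham and -1.36 against sham kidneys of day 1. These comparisons share the UIR libraries of day 1. Cpt2, for example, differed by -0.99 ± 0.12 from later sham and by -2.06 ± 0.13 from sham kidneys of day 1, while Slc27a2, whose sham level was steady, differed by -2.47 ± 0.35 and -2.32 ± 0.41.

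**Figure D3:**
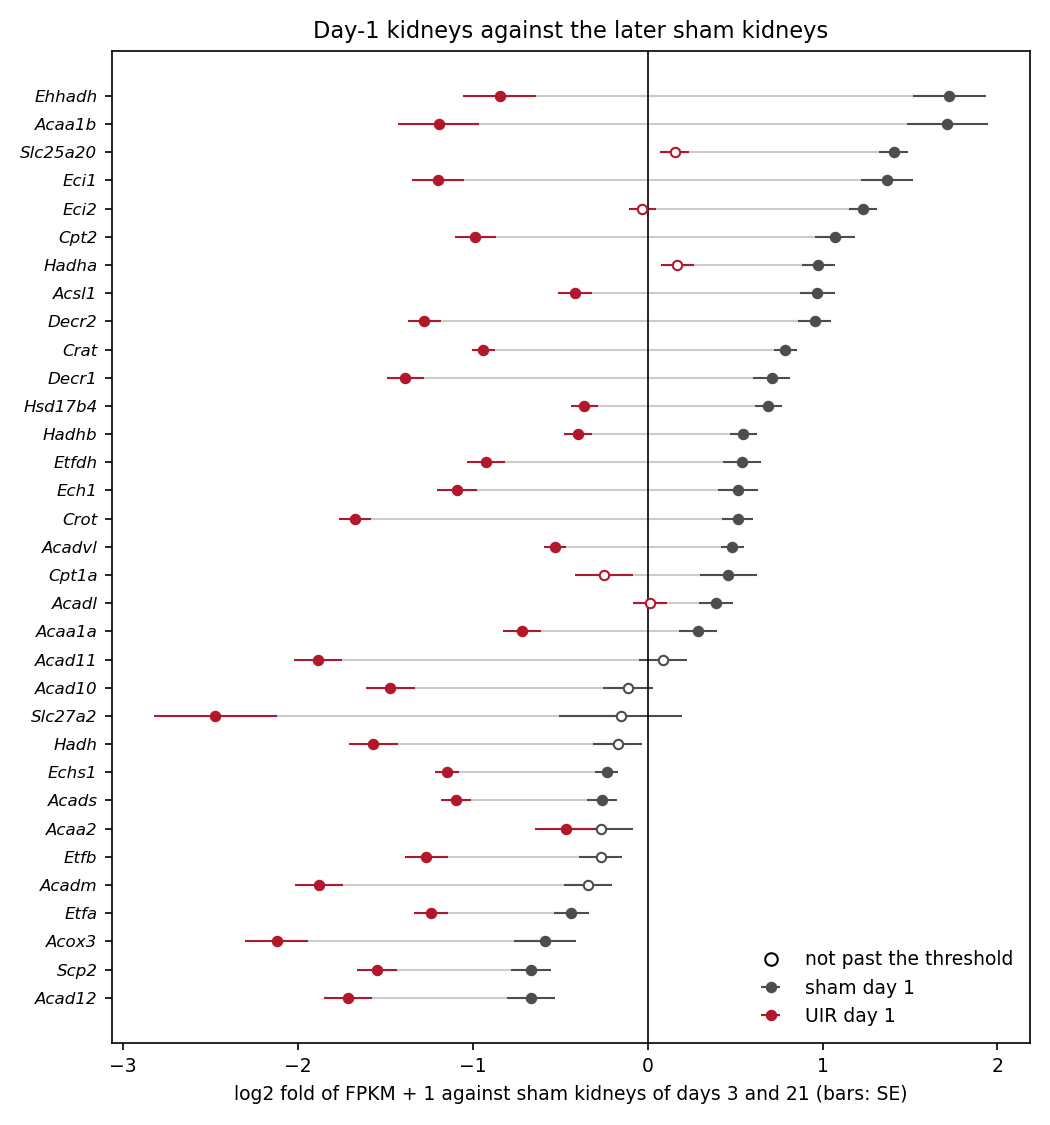
Each row is 1 member, sorted by the log2 fold of sham day 1 over later sham. That fold and the fold of UIR day 1 over later sham are points on the same horizontal axis. Bars show SE, open points were not called, and a line marks 0. Most sham points lie to the right of 0 and most UIR points to the left. The sham points of Ehhadh and Acaa1b lie farthest right and the UIR point of Slc27a2 farthest left.

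Whether the loss itself changed between days was tested as a difference of effects. From day 1 to day 3 the effect became more negative for 14 members and less negative for 9, with 10 not called, where 12.7% of all genes tested were called lower and 50.1% higher. Deeper losses were largest for Ehhadh (-1.52 ± 0.34), Acaa2 (-1.35 ± 0.29), Scp2 (-1.3 ± 0.19), Etfb (-1.18 ± 0.20) and Acadm (-0.99 ± 0.22). Smaller losses were led by Eci1 (1.56 ± 0.24), Decr2 (1.44 ± 0.15), Hadha (0.76 ± 0.15) and Crat (0.66 ± 0.11), all of them higher in sham kidneys of day 1 than in later sham (limma, highest adjusted p of these 9 genes 0.0012). The difference of effects and the sham comparison share the sham libraries of days 1 and 3, so they are not independent. The split depended on scaling, with 14 deeper and 9 smaller on the deposited scale, 8 and 13 on a TPM scale, 19 and 2 under median-of-ratios scaling and 13 and 6 under quantile normalization. Without UIR replicate 1 of day 1, 9 were deeper.

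From day 3 to day 21 the effect became more negative for 8 members, Etfdh (-0.83 ± 0.18), Acads (-0.76 ± 0.14), Cpt1a (-0.74 ± 0.27), Hadh (-0.71 ± 0.23), Etfa (-0.69 ± 0.16), Acad11 (-0.65 ± 0.23), Hsd17b4 (-0.60 ± 0.13) and Cpt2 (-0.58 ± 0.19), and less negative for 0 (limma, highest adjusted p 0.034). Of all genes tested 20.2% were called lower here, so the share of members, 8 of 33, was near the background. That count was 4 without UIR replicate 3 of day 21 and 5 without sham replicate 2 of day 3. Between day 1 and day 21 the effect deepened for 17 members and shrank for 7, against 16.3% and 54.1% of all genes. Slc27a2 deepened by the most (-2.54 ± 0.57, adjusted p = 9.4e-04, limma), followed by Ehhadh (-2.09 ± 0.34), Acaa2 (-1.75 ± 0.29) and Acaa1b (-1.58 ± 0.38). All 7 acyl-CoA dehydrogenases were called deeper. The split of 17 deeper and 7 smaller was 14 and 8 on a TPM scale, 25 and 2 under median-of-ratios scaling and 20 and 5 under quantile normalization.

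Within UIR kidneys some members fell further after day 1. From day 1 to day 3, 20 members were called lower and 1 higher, where 17.1% and 49.4% of all genes tested were. The lower calls numbered 16 on a TPM scale and 29 under median-of-ratios scaling. Ehhadh fell from 159.9 ± 11.5 to 15.2 ± 1.71 FPKM (SD, n = 3, log2 fold -3.32 ± 0.24), and Acaa1b from 75.6 ± 10.2 to 14.6 ± 1.48 FPKM (-2.29 ± 0.27). Decr2 was the member that rose, from 14.1 ± 2.02 to 20.9 ± 0.96 FPKM (0.54 ± 0.11, adjusted p = 4.3e-04, limma), and it was not called under median-of-ratios scaling. From day 3 to day 21, 13 members were called lower, against 24% of all genes, and 1 higher, against 32.2%, with the other 19 not called. Slc27a2 fell from 155 ± 15.02 to 73.6 ± 43.4 FPKM (-1.3 ± 0.41, adjusted p = 0.012, limma). All 3 genes of electron transfer were among those called lower. Acox3 was the member called higher (0.53 ± 0.21, adjusted p = 0.038, limma), a call that was lost in each of the 6 fits that left out 1 library. The mean of UIR kidneys was lowest at day 21 for 27 members, at day 3 for Ech1, Acox3 and Eci2, and at day 1 for Acaa1a, Eci1 and Decr2. This ranks group means whether or not they were called apart, and was not counted over all genes.

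Other enzymes of acyl-CoA handling, a list of 30 further genes of which 29 were tested, were also mostly lower, with more exceptions. The counts were 21 lower and 3 higher at day 1, 21 lower and 5 higher at day 3 and 22 lower and 6 higher at day 21, and the median log2 fold was -1.02, -1.29 and -1.52. At day 1 large losses included Hacl1 (-3.17), a lyase of alpha-oxidation, Pex11a (-2.69), which acts in peroxisome division, and Slc27a1 (-2.53), a fatty acid carrier. At day 3 they were Acsm3 (-5.66), a medium-chain acyl-CoA synthetase, Acot12 (-3.87), a thioesterase, Pecr (-3.74), a peroxisomal enoyl-CoA reductase, and Amacr (-3.71), a racemase of branched chains. At day 21 Acsm3 (-6.56), Acsm2 (-5.05), Pecr (-4.85) and Acot12 (-4.53) led, and the highest adjusted p of all these genes was 4.7e-08 (limma).

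Ketone body enzymes use or return the acetyl-CoA that beta-oxidation yields. Of these 5 genes 4 were called lower at day 1, 5 at day 3 and 4 at day 21, and 0 were called higher. On the log2 scale the losses included Bdh1 (-1.51) and Acat1 (-0.92) at day 1, Acat1 (-2.69), Bdh1 (-2.51) and Oxct1 (-2.09) at day 3, and Bdh1 (-3.24), Acat1 (-3.1) and Oxct1 (-2.76) at day 21. Bdh1, Acat1 and Oxct1 take part in the use of ketone bodies, and the highest adjusted p of these losses was 2.6e-04 (limma).

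Transcription regulators of the pathway included genes that fell with it. Of 13 genes tested, 10 were called lower and 1 higher at day 1, 7 and 3 at day 3, and 9 and 3 at day 21. Ppara, which encodes the fatty acid receptor PPARα, measured 35.5, 27.6 and 37.2 FPKM at day 1, 19.1, 14.2 and 17.8 at day 3 and 23.03, 19.6 and 22.2 at day 21 in sham kidneys. In UIR kidneys Ppara measured 12.4, 11.96 and 8.81 FPKM at day 1, 3.75, 2.65 and 3.37 at day 3 and 2.37, 2.96 and 1.2 at day 21. Its UIR libraries were below all sham libraries and lowest at day 21. For Ppara the log2 fold at days 1, 3 and 21 was -1.52 ± 0.19, -2.08 ± 0.19 and -2.87 ± 0.19 (SE, limma, highest adjusted p 5.6e-06). Ppara was also higher in sham kidneys of day 1 than in later sham (0.76 ± 0.17, adjusted p = 0.0014, limma). Hnf4a, a proximal tubule and liver nuclear receptor, measured 230.4, 204 and 201 FPKM at day 1, 275, 247 and 289 at day 3 and 271, 307 and 283 at day 21 in sham kidneys. In UIR kidneys Hnf4a measured 53.1, 48.9 and 30.3 FPKM at day 1, 123, 126 and 119 at day 3 and 38.1, 46.1 and 18.1 at day 21. UIR kidneys of day 3 lay between the low UIR values of days 1 and 21 and the sham values. For Hnf4a the log2 fold at days 1, 3 and 21 was -2.28 ± 0.25, -1.13 ± 0.25 and -3.13 ± 0.25 (SE, limma, highest adjusted p 6.4e-04). Ppargc1a, the coactivator PGC-1α of mitochondrial genes, measured 9.23, 15.8 and 11.2 FPKM at day 1, 12.3, 12.9 and 14.1 at day 3 and 14.8, 14.6 and 10.8 at day 21 in sham kidneys. In UIR kidneys Ppargc1a measured 4.94, 5.4 and 7.3 FPKM at day 1, 9.28, 8.98 and 10.8 at day 3 and 9.04, 9.4 and 6.76 at day 21. Differences were small beside those of Ppara, and the groups lay close at day 3. For Ppargc1a the log2 fold at days 1, 3 and 21 was -0.91 ± 0.18, -0.40 ± 0.18 and -0.62 ± 0.18 (SE, limma, highest adjusted p 0.051). At day 3 Ppargc1a was not called on the deposited scale, but it was called lower under median-of-ratios scaling (-0.89) and quantile normalization (-0.89).

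Klf15, a regulator of lipid and amino acid metabolism, differed by -2.37, -3.14 and -2.96 on the log2 scale, and Lpin1, a phosphatidate phosphatase and coactivator, by -2.09 at day 1 and -1.95 at day 3 (limma, highest adjusted p 2.1e-07). Higher in UIR kidneys were the corepressor Nrip1 at day 3 (1.7, adjusted p = 2.0e-07, limma) and the adipogenic receptor Pparg at day 21 (1.86, adjusted p = 5.2e-09, limma). Subunits of the respiratory chain and ATP synthase, which use the electrons that oxidation delivers, were lower for 10 of 18 genes at day 1 and for 18 of 18 at days 3 and 21. Their median log2 fold was -0.23, -1.22 and -1.6, which is closer to 0 at day 1 than the members' -1.36. The 4 largest losses at day 1 were Ndufv1 (-0.59), Uqcrc1 (-0.57), Ndufs1 (-0.54) and Sdhb (-0.46), and at day 21 Sdhb (-2.0), Ndufs1 (-1.89), Atp5b (-1.82) and Ndufv1 (-1.72), with a highest adjusted p of 0.0074 (limma). In sham kidneys of day 1, where 20 members stood higher than in later sham, 16 of these 18 subunits stood lower and 0 higher. The difference between the lists was not tested.

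**Figure D4:**
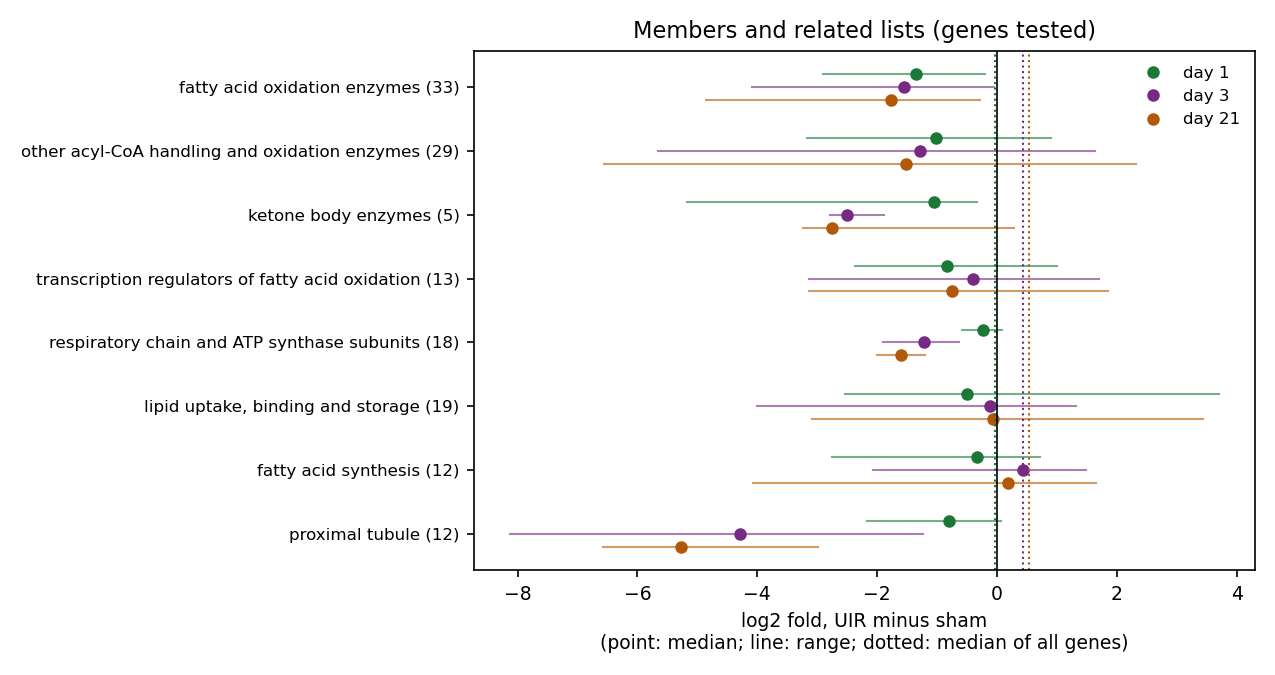
Median log2 fold of UIR over sham at days 1, 3 and 21 for the 33 members, the 6 related lists and proximal tubule markers (points), with the range over genes (lines) and the median of all genes tested (dotted). Members are at -1.36, -1.55 and -1.78, between respiratory chain subunits and proximal tubule markers at days 3 and 21, and below both at day 1.

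Since many members are textbook PPARα targets, their promoters were searched for motif letters. RefSeq windows (GRCm38.p6) of 250 bases upstream of a start were found for 29 members (30 windows) among 32851 windows in all, and were read on both strands. Hsd17b4, Acaa2, Crat and Decr1 had none. The direct repeat bound by PPARα with RXR, here AGGNCA, any base and AGGNCA again, was in 0 member windows and in 0.3379% of all windows. With up to 2 letters different from AGGTCA, any base and AGGTCA, a search added after the strict one, it was in the windows of Echs1 and Etfa, 6.667% of member windows and 3.236% of all. The estrogen-related receptor motif TCAAGGTCA was in 0 member windows and 0.3866% of all, and the NRF1 palindrome, GCGCA followed at once by TGCGC, in those of Acad12 and Etfdh and 0.7823% of all. CCAAT, marked in the printed promoters, was in 12 member windows (40.0%) and 33.85% of all windows. A missing match says only that these letters are not in these 250 bases.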

How the data were processed

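RNA was sequenced from 18 mouse kidneys, and the deposited values are FPKM per gene, as the authors' table names them per the file headers. Per the submitters' processing notes, the genome build was mm9 and the tools were RSEM 1.2.12, HISAT2 2.0.4 and Bowtie2 2.2.5, with no step named for each. Whether FPKM was scaled further by the authors is not stated, and read depth is unknown. No 2 libraries held identical values.

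Genes with FPKM of at least 1 in at least 3 libraries were tested on log2(FPKM + 1), on which the folds of weakly expressed genes come out too small. A model of 6 group means over all 18 libraries (12 residual degrees of freedom) was fitted with limma 3.58.1 in R 4.3.3 with a variance trend, and 10 comparisons were tested, two-sided, with Benjamini-Hochberg adjustment over 14716 genes. limma's test was checked on simulated data in which few genes changed, so the check does not cover shifts of most genes as seen here. Alternatives were pseudocounts of 0.1 and 5, no filter, a filter of 5 FPKM, TPM, median-of-ratios and quantile scaling, a replicate block, only the groups compared, arrayWeights, and each library left out.

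The members and all lists were chosen with earlier results of these data known. Values in every library are given for the 2 members of each role with the largest absolute fold, members called against the majority of a comparison, and Acaa1a and Acaa1b. Of each related list up to 4 called genes with the largest change were named per comparison, and always Ppara, Ppargc1a and Hnf4a, and some genes under this rule are not reported here. The lists held 204 genes, of which 203 were in the table and 194 were tested. Promoters came from RefSeq (GRCm38.p6), another build than the files', with members matched by symbol.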

Additional observations from a re-analysis of the deposited data

Results flagged for a closer look

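Members whose loss in UIR kidneys differed between days, by limma's test of the difference of log2 folds, deserve a closer look. The highest adjusted p among all of them was 0.045. The 3 comparisons share libraries, since each day enters 2 of them, and negative values mean a deeper loss at the later day.

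Between days 1 and 3 the loss deepened for 14 of 33 members, 6 of the 7 acyl-CoA dehydrogenases among them, where 12.7% of all genes tested were called lower and 50.1% higher. They were Ehhadh (-1.52), Acaa2 (-1.35), Scp2 (-1.30), Etfb (-1.18), Acadm (-0.99), Acox3 (-0.82), Acadl (-0.78), Acad10 (-0.68), Etfa (-0.68), Acadvl (-0.67), Echs1 (-0.63), Acad12 (-0.59), Ech1 (-0.50) and Acads (-0.37). It became smaller for 9 members, of which 3 act on unsaturated chains. These were Eci1 (1.56), Decr2 (1.44), Hadha (0.76), Crat (0.66), Decr1 (0.54), Acaa1a (0.49), Etfdh (0.48), Slc25a20 (0.47) and Hsd17b4 (0.45). All 9 of the latter were higher in sham kidneys of day 1 than in later sham kidneys. That is partly built in, because both comparisons use the sham libraries of days 1 and 3 in the same direction.

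Between days 3 and 21 the loss deepened for 8 of 33 members, a share near the 20.2% of all genes called lower, and for 4 without UIR replicate 3 of day 21. The 8 were Etfdh (-0.83), Acads (-0.76), Cpt1a (-0.74), Hadh (-0.71), Etfa (-0.69), Acad11 (-0.65), Hsd17b4 (-0.60) and Cpt2 (-0.58).

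Between days 1 and 21 the loss deepened for 17 of 33 members, all 7 acyl-CoA dehydrogenases among them, where 16.3% of all genes tested were called lower and 54.1% higher. They were Slc27a2 (-2.54), Ehhadh (-2.09), Acaa2 (-1.75), Acaa1b (-1.58), Scp2 (-1.39), Etfa (-1.36), Etfb (-1.29), Acads (-1.12), Hadh (-1.11), Acadm (-1.09), Acad10 (-1.06), Acadl (-1.03), Cpt1a (-0.80), Acad12 (-0.73), Echs1 (-0.72), Acadvl (-0.70) and Acad11 (-0.62). Smaller losses at day 21 than at day 1 were found for 7 members. These were Decr2 (1.56), Eci1 (1.55), Slc25a20 (0.75), Hadha (0.53), Crat (0.46), Eci2 (0.41) and Decr1 (0.41).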

How the results depend on the processing

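The counts of members lower in UIR than in sham kidneys moved by at most 1 under the alternatives tried, with 31 or 32 at day 1, 31 to 33 at day 3 and 32 or 33 at day 21. Scaling moved the background: on a TPM scale the median fold of all genes was 0.75 at day 3 and 0.76 at day 21, and under median-of-ratios scaling 0.03 and 0.03, while the members' median was -1.28 and -1.64 on the first and -2.07 and -2.37 on the second. Single calls lost were Acadl at day 1, Acaa1a at day 3 and Hadha at day 21, where quantile normalization gave -0.20 (adjusted p = 0.11, limma) and TPM -0.09 (adjusted p = 0.49, limma). Hadha at day 3 was called lower under arrayWeights (-0.18) and median-of-ratios scaling (-0.57).

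Differences between days depended more on the choices made, and the cause was not tested. Under median-of-ratios scaling 2 members had a smaller loss at day 3 than at day 1 and 2 at day 21 than at day 1, and 0 were higher in UIR kidneys of day 3 than of day 1. On a TPM scale 8 members had a deeper loss at day 3 than at day 1, 3 were higher in UIR kidneys of day 3 than of day 1, and 2 were higher in UIR kidneys of day 1 than in later sham. Members with a smaller loss at day 21 than at day 3 numbered 2 under arrayWeights and 1 with only the groups compared. Members higher in UIR kidneys of day 21 than of day 3 numbered 0 under median-of-ratios scaling, a pseudocount of 5 and no filter, and 2 under quantile normalization. Under median-of-ratios scaling the difference of effects between days 1 and 21 turned negative for Crot (-0.50), Eci2 (-0.24), Decr1 (-0.23), Crat (-0.17) and Hadha (-0.13). Between days 1 and 3 it turned negative for Eci2 (-0.38), Hsd17b4 (-0.12), Slc25a20 (-0.0907), Etfdh (-0.0822), Acaa1a (-0.0797) and Decr1 (-0.02). Acad12 was lower in UIR kidneys of day 3 than of day 1 under quantile normalization (-0.51).

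With 1 library left out at a time, the deeper losses from day 3 to 21 numbered 4 to 11 and the smaller ones 0 to 1. Deeper losses from day 1 to 3 numbered 9 to 16 and smaller ones 7 to 10, and from day 1 to 21 they numbered 16 to 18 and 6 to 8. Members higher in UIR kidneys of day 1 than in later sham numbered 0 to 1, higher at day 3 than day 1 of UIR 1 to 3, and higher at day 21 than day 3 of UIR 0 in all 6 fits. The count of 3 came without UIR replicate 1 of day 1.

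A replicate block changed no count by over 1.5 times: 15 members instead of 14 had a deeper loss at day 3 than at day 1, and 19 instead of 20 were higher in sham kidneys of day 1. No clear pairing of libraries by number was seen. The 45 pairs with the same number had correlations of -0.13 to 0.17, only 6 of them above 0.1. Their median was 0.007, against -0.003 for different numbers, and 8 of 18 libraries correlated best with their own number. With 3 libraries per group this check cannot exclude a weak pairing. Unknown depth limits the precision of Acad12 and Acad10, the members with the lowest FPKM.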

Other observations

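Genes of lipid uptake, binding and storage showed a strong rise in sham kidneys of day 1. Of 19 genes, 14 were called higher in sham kidneys of day 1 than in later sham and 2 lower (limma). Plin2, which coats lipid droplets, measured 1614, 859 and 1499.9 FPKM in sham kidneys of day 1, 48.0, 51.03 and 45.9 at day 3 and 40.8, 48.1 and 52.8 at day 21, a log2 fold of 4.72 ± 0.16 (SE, adjusted p = 5.7e-11, limma). No later sham library came near those of day 1. Angptl4, an inhibitor of lipoprotein lipase, rose by 3.19 ± 0.23, G0s2, an inhibitor of lipolysis, by 2.46 ± 0.22, and Pnpla2, the lipase that G0s2 inhibits, by 2.07 ± 0.13 on the log2 scale (SE, limma, highest adjusted p 3.6e-07). Adipocyte markers summed to 6.16 to 9.91 FPKM in sham kidneys of day 1 and 0 to 0.3 FPKM in those of day 3, made up mostly of the lipid droplet genes Cidec and Plin1, while Adipoq and Lep were listed at 0 in all 3 sham libraries of day 1. Of the 6 adipocyte markers only Cidec and Plin1 passed the filter, and both were called higher.

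In UIR kidneys this list moved both ways. At day 1 Fabp5, a fatty acid binding protein, was higher (3.71 ± 0.19), as was Hilpda, a lipid droplet protein induced by hypoxia (2.48 ± 0.27), while Plin5 (-2.54 ± 0.15) and the fatty acid receptor Cd36 (-1.96 ± 0.20) were lower (limma, highest adjusted p 1.4e-06). At day 3 the largest changes were losses of Lpl (-4.0 ± 0.22), Cd36 (-3.65 ± 0.20), Fabp3 (-2.38 ± 0.31) and Dgat2 (-2.2 ± 0.21), and at day 21 Fabp5 (3.44 ± 0.19) was higher and Dgat2 (-3.09 ± 0.21), Fabp3 (-2.67 ± 0.31) and Cd36 (-2.32 ± 0.20) lower. The counts lower and higher were 8 and 6 at day 3 and 7 and 4 at day 21, but 6 and 8 at day 21 on a TPM scale and 12 and 2 under median-of-ratios scaling. Of 12 fatty acid synthesis genes, 6 and 3 were lower and higher at day 1, 2 and 6 at day 3 and 4 and 5 at day 21. That balance turned with scaling, to 6 and 3 at day 3 and 8 and 2 at day 21 under median-of-ratios scaling. On the deposited scale the shares of all genes tested called lower and higher were 31.1% and 28.5% at day 1. They were 17.9% and 57.6% at day 3 and 20.1% and 60.7% at day 21. At day 3 the median log2 fold of the synthesis genes was 0.43, beside 0.44 for all genes, so their counts lay near the background. Scd1, the stearoyl-CoA desaturase, was lower on all 3 days (-2.76, -2.07 and -1.59), as was Me1, the malic enzyme that supplies NADPH (-0.94, -1.85 and -4.07), while Elovl6, an elongase, was higher at day 3 (1.49) and day 21 (1.01) on the deposited scale (limma, highest adjusted p 0.0039). At day 21 the call of Elovl6 was lost under quantile normalization (0.20).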
